A study of Rattus norvegicus with 6 samples.

Results

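The genes examined here encode the aminoacyl-tRNA synthetases, the enzymes that join each amino acid to its transfer RNA. They were taken from a fixed list of 35 symbols, 19 for cytosolic and 16 for mitochondrial enzymes, and matched by transcript accession to the table of expression values. 32 of the 35 had a row, 19 cytosolic and 13 mitochondrial, among 13104 genes and unmatched transcripts in all. Iars2, Lars2 and Mars2 had no matched row. A transcript without a gene match, which the authors' table describes as the probable mitochondrial leucine enzyme, was listed at 5.72, 4.41 and 5.39 FPKM after vehicle, against 5.56, 5.11 and 4.53 after melatonin, and it was not counted as a member. The aspartate enzymes are outside the list and were not analysed here.

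The tissue was colonic epithelium (the inner layer of the colon) from 6 rats, adult Wistar males. All of them, controls included, were pinealectomized, which removes the source of the nightly melatonin rhythm. 3 animals received vehicle (2.5% ethanol in PBS) and 3 received melatonin (1 mg/kg), each by intraperitoneal injection as subjective night began. The colon was collected 4 h after the injection. The vehicle group is numbered 1 to 3 and the melatonin group 4 to 6, and values are given in that order. Levels are in FPKM (fragments scaled by transcript length and by sequencing depth), a unit in which genes of different length can be set side by side.

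In a cell the cytosolic synthetases charge the transfer RNAs used by cytosolic ribosomes, and a separate set encoded in the nucleus charges those used inside mitochondria. Gars1 and Kars1 each encode the enzyme of both compartments, and mitochondrial glutaminyl-tRNA is made without a synthetase of its own, by charging with glutamate and then converting it. Several cytosolic enzymes are held together in the multi-synthetase complex. When amino acids run short, uncharged transfer RNA activates the kinase Gcn2, and the transcription factor Atf4 then acts on many genes through the C/EBP-ATF response element, cytosolic synthetase genes among them.

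That element was looked for in the promoters of both classes. The letters TGATGNAA were searched on both strands of the 300 bases around each annotated start (250 before and 50 after, RefSeq, rat build GRCr8). They were found in 7 of 17 cytosolic genes with a promoter in the table (Aars1, Cars1, Iars1, Mars1, Nars1, Tars1 and Yars1) and in 0 of 16 mitochondrial genes. Of all 33469 promoters 3.98% held them, a share at which fewer than 1 match would be expected among 16. Gars1 and Rars1 had no entry. The stretches below are from 5 of these genes, read 5′ to 3′ on the strand of the gene, with the matched letters in capitals. They are shown to let the shared core be compared. In all but Yars1 the match lies on the strand opposite the gene, so the reverse complement appears.
Cars1, chr1:208225335-208225362, minus strand, from position 18 to 25: ggcgccgcggTTGCATCAgattctggaa
Iars1, chr17:15193659-15193686, minus strand, from position -24 to -17: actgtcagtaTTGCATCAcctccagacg
Mars1, chr7:65023753-65023780, minus strand, from position -17 to -10: cccgttccggTTGCATCAgcgtgggctc
Tars1, chr2:62114812-62114839, minus strand, from position -27 to -20: tggcgtcccgTTGCATCAgctggttagc
Yars1, chr5:146820191-146820212, plus strand, from position 39 to 46: cgagctcagcTGATGCAAcctg
The search itself fixed every matched letter but the base at N, and at that base these 5 stretches are alike once strand is taken into account. In Aars1, which is not shown, 1 match has another base there. The element of NRF1, a regulator of respiratory genes, was searched the same way as the letters GCGCA and GCGC with any 1 base between them. It was found in 3 of 17 cytosolic promoters (Farsb, Sars1 and Tars1), in 3 of 16 mitochondrial promoters (Iars2, Pars2 and Wars2) and in 4.25% of all promoters. The stretch of Farsb is shown because this gene had the smallest p of the members in the comparison of the groups.
Farsb, chr9:87395504-87395533, minus strand, from position -18 to -9: cccgcacgtgGCGCAGGCGCagtgtccacg
No match of this element overlapped a match of the other in these genes. A match is a run of letters and does not show that a factor binds there.

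The libraries were shallow and similar to each other. Steps between low FPKM values gave 3265000 to 3600000 mapped fragments per library, an estimate made here, and a synthetase gene was backed by 22 to 601 estimated reads in a library. The epithelial markers Epcam and Krt8 were abundant (Epcam at 1136 to 1252 FPKM), while the 8 smooth muscle and fibroblast markers with a row summed to 11.1 to 17.2 FPKM in an animal. Of these, Des was listed at 3.00 to 7.02 FPKM, Myh11 at 2.36 to 3.95 and Tagln at 1.29 to 3.83, and Acta2 and Dcn were at 0 in all vehicle animals. Nothing in the labels ties the animals to litters or batches.

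Cytosolic synthetase genes were expressed at higher levels than mitochondrial ones in every animal. The cytosolic median was 28.6, 25.0 and 25.7 FPKM after vehicle and 26.3, 29.4 and 30.0 after melatonin. The mitochondrial median was 7.82, 8.03 and 7.83 after vehicle and 9.66, 9.16 and 9.08 after melatonin. The ratio of the medians thus lay between 2.72 (melatonin animal 4) and 3.66 (vehicle animal 1). The median tested gene of the table stood at 14.9 to 16.9 FPKM, above the mitochondrial and below the cytosolic median in each library.

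Kars1, the lysine enzyme that serves both compartments, was the highest. It was listed at 65.93, 60.19 and 68.23 FPKM after vehicle, against 59.79, 72.44 and 79.04 after melatonin. Each of these values lay above every value of Qars1, the glutamine enzyme and the next in order, which was listed at 58.16, 56.36 and 57.66 after vehicle, against 54.11, 50.85 and 50.48 after melatonin. Kars1 over Qars1 was the only step in the order of the 32 genes at which neighbours did not overlap across the 6 animals, out of 31 steps. Gars1, the glycine enzyme of both compartments, followed at 49.24, 45.91 and 45.35 after vehicle and 48.82, 57.65 and 51.35 after melatonin. Rars1, the arginine enzyme, had nearly the same mean but varied more, at 53.45, 33.46 and 51.05 after vehicle and 45.18, 55.36 and 58.58 after melatonin. The lowest Rars1 value was that of vehicle animal 2.

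The lowest levels belonged to mitochondrial enzymes. Pars2, which charges proline, was listed at 2.90, 2.97 and 2.93 FPKM after vehicle, against 2.88, 4.24 and 3.06 after melatonin, with 32 to 50 estimated reads a library. Ears2, the glutamate enzyme that also starts mitochondrial glutaminyl-tRNA, was next at 3.63, 3.64 and 3.23 after vehicle and 4.46, 5.35 and 5.51 after melatonin. Nars2, the asparagine enzyme, was listed at 5.59, 6.45 and 5.65 after vehicle and 3.93, 7.48 and 5.42 after melatonin, so that melatonin animals 4 and 5 lay on either side of all vehicle animals. Cars2, the cysteine enzyme, was listed at 6.70, 6.97 and 7.72 and at 7.51, 9.16 and 6.22. In all, 8 of the 13 mitochondrial genes had means under 10 FPKM, and the 13 highest of the 32 genes were all cytosolic.

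**Figure D1:**
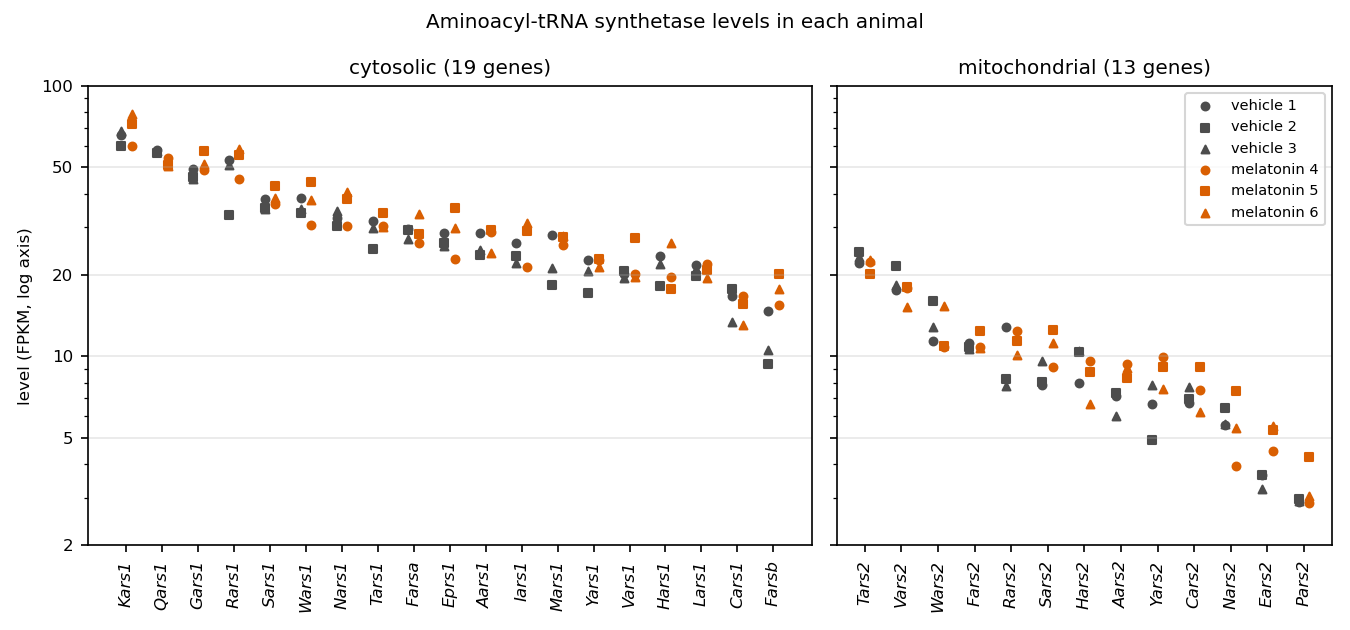
Level of each synthetase gene (FPKM, log axis) in each of the 6 animals, cytosolic genes on the left and mitochondrial genes on the right, ordered by mean. Points are single animals, grey for vehicle and orange for melatonin; Kars1 is the highest and Pars2 the lowest, and the groups overlap in most genes.

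Set side by side by amino acid, the cytosolic enzyme was the more abundant in nearly every pairing. 14 pairings could be formed, and in 12 of them the cytosolic gene was higher in all 6 animals. The median over pairings of the mean log2 ratio of levels was 1.51. The widest gap was between Eprs1, which charges proline and glutamate from a single protein, and Pars2. Eprs1 was listed at 28.61, 26.24 and 25.66 FPKM after vehicle and 22.85, 35.28 and 29.82 after melatonin, and was 8.88-fold higher than Pars2 (log2 ratio 3.15 ± 0.12, SD over 6 animals). Its ratio to Ears2 was 6.60-fold (log2 ratio 2.72 ± 0.27).

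At the other end, the valine enzymes were nearly level. Vars1 was listed at 20.12, 20.71 and 19.48 FPKM after vehicle and 20.26, 27.31 and 19.67 after melatonin. Vars2, its mitochondrial counterpart, was listed at 17.54, 21.53 and 18.35 after vehicle and 17.91, 18.01 and 15.24 after melatonin. The log2 ratio was 0.23 ± 0.23 (SD, n = 6 animals), with Vars1 higher in 5 of 6 animals, and the mean is no wider than its spread. Tars1 and Tars2, the threonine enzymes, had a log2 ratio of 0.42 ± 0.23, and Tars1 was the higher in all 6. Tars2 had the highest mean of the mitochondrial genes at 22.5 FPKM, and 6 cytosolic genes had lower means than it.

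Hars1 and Hars2, the histidine enzymes, lie close together on opposite strands in the RefSeq annotation, and their 300-base promoter windows share 243 bases. Hars1 was listed at 23.57, 18.25 and 21.91 FPKM after vehicle and 19.68, 17.82 and 26.29 after melatonin. Hars2 was listed at 7.96, 10.38 and 10.46 after vehicle and 9.66, 8.75 and 6.67 after melatonin. Melatonin animal 6 had the highest Hars1 and the lowest Hars2 of the 6. Their log2 ratio, 1.25 ± 0.44 (SD, n = 6), had the widest spread of the 14 pairings. Hars1 is on the minus and Hars2 on the plus strand, and windows sharing this much place their annotated starts pointing away from each other. In a list of genes sorted by 1 coordinate each, 1 other gene stands between them, which does not show that it lies between the starts. The library protocol describes no strand marking. Whether any of this bears on the spread of the ratio was not tested.

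**Figure D2:**
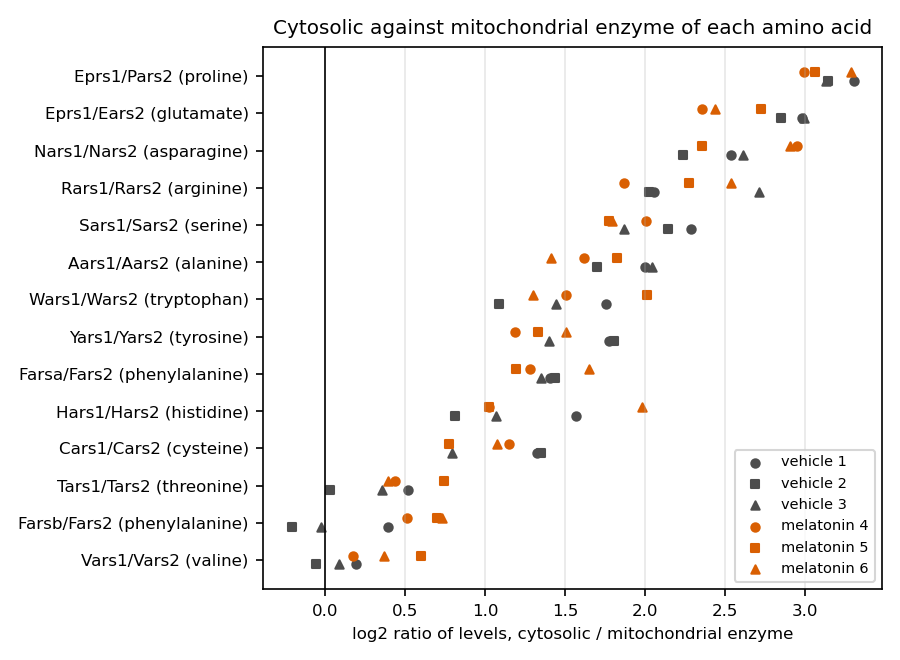
Log2 ratio of the level of the cytosolic to that of the mitochondrial enzyme for each amino acid, 1 point per animal, grey for vehicle and orange for melatonin. All points of 12 pairings lie right of 0, from threonine upwards to proline (Eprs1 over Pars2, mean 3.15); valine and the Farsb pairing have points on both sides.

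The comparison of melatonin with vehicle asks whether the hormone changed expression in the colonic epithelium within 4 h. No synthetase gene passed the threshold. Over all 10137 genes and transcripts tested with limma on log2(FPKM + 1), 0 passed an adjusted p under 0.05 in either direction (0% higher, 0% lower), and the member adjusted p-values ran from 0.972 to 0.996. At an unadjusted p under 0.05 there were 2 members, both higher after melatonin, where 1.82% of all tested features were higher and 1.92% lower by that rule. limma voom on estimated reads called 0 features too, with 346 at an unadjusted p under 0.05. Without vehicle animal 1 limma called 3 features higher and without melatonin animal 4 it called 4, and no member was among them. With 3 animals a group, an exact permutation test of a single gene cannot go below p = 0.1.

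Farsb, the beta subunit of the cytosolic phenylalanine enzyme, had the smallest p of the members. It was listed at 14.70, 9.37 and 10.52 FPKM after vehicle, against 15.47, 20.21 and 17.79 after melatonin. Every melatonin animal lay above every vehicle animal, although vehicle animal 1 and melatonin animal 4 were close. The means were 11.5 ± 2.80 and 17.8 ± 2.37 (SD, n = 3), and the log2 change was 0.60 ± 0.19 (SE; limma adjusted p = 0.972). The counts behind it were 66 to 112 estimated reads after vehicle and 116 to 156 after melatonin.

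Farsa, the alpha subunit that pairs with Farsb in the working enzyme, was listed at 29.68, 29.30 and 27.16 FPKM after vehicle and 26.26, 28.47 and 33.53 after melatonin. Its log2 change was 0.03 ± 0.12 (SE; limma adjusted p = 0.987), and the sign turned without vehicle animal 3 or without melatonin animal 6. The log2 ratio of Farsb to Farsa was -1.01, -1.64 and -1.37 after vehicle and -0.76, -0.49 and -0.91 after melatonin. Farsb thus stood below Farsa in every animal, and the ratios of the groups did not overlap. This ratio was picked out after its values were seen and was not tested.

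Ears2 was the other member with an unadjusted p under 0.05. Its values, given above, did not overlap between the groups, with means of 3.50 ± 0.23 and 5.11 ± 0.57 FPKM (SD, n = 3) and a log2 change of 0.44 ± 0.18 (SE; limma adjusted p = 0.972). They rest on 22 to 25 estimated reads in a vehicle library and 30 to 38 in a melatonin library. Aars2, the mitochondrial alanine enzyme, was listed at 7.14, 7.33 and 6.02 FPKM after vehicle and 9.41, 8.30 and 9.08 after melatonin. The groups did not overlap there either (log2 change 0.35 ± 0.16, SE; limma adjusted p = 0.972).

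Yars2, the mitochondrial tyrosine enzyme, was listed at 6.66, 4.91 and 7.83 FPKM after vehicle and 9.97, 9.14 and 7.55 after melatonin. Melatonin animal 6 fell below vehicle animal 3 (log2 change 0.42 ± 0.20, SE; limma adjusted p = 0.972). Sars2, the mitochondrial serine enzyme, was listed at 7.82, 8.03 and 9.61 after vehicle and 9.11, 12.52 and 11.17 after melatonin, and melatonin animal 4 overlapped the vehicle range. Mars1, the cytosolic methionine enzyme, was listed at 28.18, 18.31 and 21.29 after vehicle and 25.76, 27.76 and 27.93 after melatonin, where vehicle animal 1 was the highest of the 6. The log2 changes of Sars2, Mars1 and Gars1 were 0.33, 0.28 and 0.16.

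Qars1 was the only member with every melatonin animal below every vehicle animal. Its values spread little within a group, with means of 57.4 ± 0.93 and 51.8 ± 2.0 FPKM (SD, n = 3). The log2 change was -0.15 ± 0.09 (SE; limma adjusted p = 0.972). Among the 32 members, 3 had all melatonin animals above all vehicle animals (Farsb, Ears2 and Aars2) and 1 had all below. Over all features tested these shares were 4.04% and 4.33%. The members not described one by one (Aars1, Cars1, Sars1, Tars1, Yars1, Fars2, Tars2 and Wars2) had log2 changes from -0.11 for Wars2 to 0.15 for Yars1, with overlapping groups in each.

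The 95% intervals of the log2 changes reached from 0.21 to 0.52 to either side of the estimate, with a median of 0.36. Changes of that size in either direction could therefore have gone undetected. These intervals are not adjusted for the number of features tested, and the adjusted threshold asks for larger changes. The interval of Farsb ran from 0.17 to 1.04, yet its limma adjusted p was 0.972. For Wars1, the tryptophan enzyme known as inducible by interferon gamma, the interval ran from -0.28 to 0.39 around a log2 change of 0.06. Wars1 was listed at 38.52, 33.98 and 34.95 FPKM after vehicle and 30.73, 44.09 and 38.03 after melatonin, with melatonin animal 4 the lowest and animal 5 the highest of all. Its sign turned without melatonin animal 5.

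**Figure D3:**
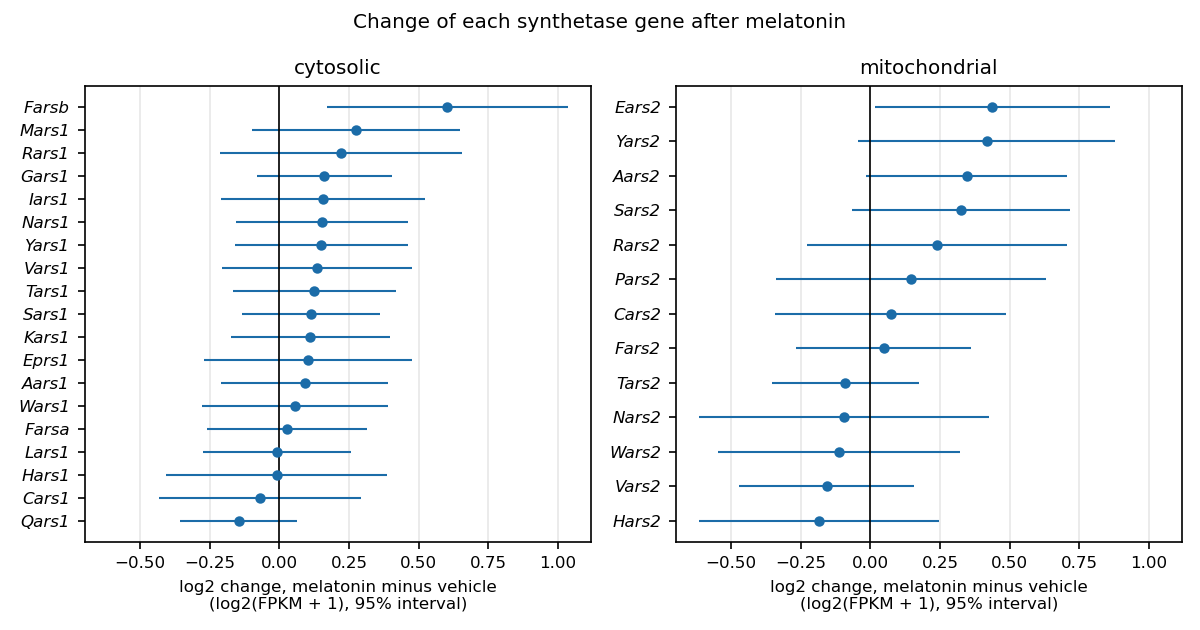
Log2 change of each member (melatonin minus vehicle, from log2(FPKM + 1) values) with its 95% interval from limma, cytosolic genes on the left and mitochondrial genes on the right. Most intervals cross 0; those of Farsb and Ears2 do not, before adjustment over all genes.

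As groups, the members leaned slightly upward. Of the 19 cytosolic genes 15 had a positive log2 change and of the 13 mitochondrial genes 8 did, where 46% of all tested features were positive. With median-of-ratios scaling 17 of the 19 cytosolic genes were positive and again 8 of the 13 mitochondrial ones, beside 50.1% of all features. The median log2 change was 0.11 over the cytosolic genes, 0.07 over the mitochondrial genes and -0.02 over all features tested. The cytosolic changes ran from -0.15 (Qars1) to 0.60 (Farsb) and the mitochondrial ones from -0.18 (Hars2) to 0.44 (Ears2). These medians depended on single animals. The cytosolic median was 0.04 without vehicle animal 2, 0.07 without melatonin animal 5 and 0.19 without melatonin animal 4. The mitochondrial median was -0.02 without melatonin animal 5, 0.12 without vehicle animal 3 and 0.20 without melatonin animal 6.

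Without further scaling of the libraries, the cytosolic genes leaned upward in melatonin animals 5 and 6 and not in animal 4. On the same values the mitochondrial genes leaned upward mainly in animal 5. The median difference of the cytosolic genes from the vehicle mean, on the log2 scale, was 0.01 in melatonin animal 4, 0.23 in animal 5 and 0.13 in animal 6, against 0.09, -0.07 and -0.04 in the vehicle animals. In animal 5, 13 of 19 cytosolic genes lay above all vehicle animals, in animal 6 10 did and in animal 4 3 did. Over all features tested those shares were 26.1%, 21.4% and 28.7%. In animal 4, 7 of the 19 lay below all vehicle animals, against 17.6% of all features. The mitochondrial genes had medians of 0.02, 0.26 and 0.05 in animals 4, 5 and 6, the highest being that of animal 5. Over all features tested the medians were 0.04, -0.00027 and -0.09 in animals 4, 5 and 6, and in animal 6 41.0% of features lay below all vehicle animals, against 3 of 19 cytosolic and 4 of 13 mitochondrial genes.

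Members of the multi-synthetase complex, a grouping added after the values were seen, had a higher median in melatonin animals 5 and 6 than in animal 4, although Lars1 and Qars1 were highest in animal 4 of the 3. The 7 complex genes in the list (Eprs1, Iars1, Kars1, Lars1, Mars1, Qars1 and Rars1) had median differences from the vehicle mean of -0.08, 0.27 and 0.28 in animals 4, 5 and 6. The other 12 cytosolic genes had 0.04, 0.23 and 0.09. Iars1, the isoleucine enzyme of the complex, was listed at 26.38, 23.55 and 22.23 FPKM after vehicle and 21.45, 29.07 and 31.09 after melatonin. Lars1, the leucine enzyme, was listed at 21.78, 19.90 and 20.97 after vehicle and 21.95, 20.96 and 19.47 after melatonin, with groups that overlapped. The levels of the 7 ranged from a mean of 20.8 for Lars1 to 67.6 for Kars1, a spread wider than that between animals.

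Nars1, the cytosolic asparagine enzyme, was the only member with more than 1 transcript in the table. The transcript of isoform 1 was listed at 26.15, 27.28 and 34.50 FPKM after vehicle and 22.62, 37.08 and 39.32 after melatonin. That of isoform 2 was listed at 6.30, 3.10 and 0 after vehicle and 7.75, 1.14 and 1.25 after melatonin. The 3 animals with the most of the second (melatonin animal 4 and vehicle animals 1 and 2) had the least of the first. How reads shared by both were divided is not given in the sources used here, and the 2 were summed. The sum had a log2 change of 0.15.

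Cytosolic genes with and without a C/EBP-ATF element match did not stand far apart. The 7 with a match had a median log2 change of 0.15 and 6 were positive. The 10 without had a median of 0.08 and 7 were positive. Genes of the amino acid response, the pathway that acts through this element, had a median of 0.06 over 23 tested members, 14 positive, with 0 at an unadjusted p under 0.05. Atf4 was listed at 248.73, 254.21 and 246.09 FPKM after vehicle and 258.51, 269.37 and 264.58 after melatonin, so its groups did not overlap, yet the log2 change was only 0.08 (limma adjusted p = 0.972). Asns, asparagine synthetase and a well-known Atf4 target, was listed at 10.04, 7.45 and 5.92 and at 6.29, 13.05 and 16.98, high in animals 5 and 6. Chac1, another target, was listed at or near 0 in every animal (at most 0.20 FPKM). The 3 genes of this list with the smallest p were Atf3, Shmt2 and Asns, and the adjusted p of each by limma was 0.972.

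Partners of the cytosolic enzymes had a median log2 change of 0.02 over 8 tested genes, 6 positive. Of the scaffold genes of the complex, Aimp1 and Aimp2 were listed at 23.30, 24.50 and 31.77 and at 24.09, 31.29 and 36.21 FPKM in animals 4, 5 and 6. After vehicle Aimp1 was listed at 20.59, 17.79 and 25.68, and Aimp2 at 26.31, 26.19 and 28.40. Eef1e1 of the same list was at 51.70, 44.99 and 43.16 after vehicle and 40.50, 47.73 and 55.68 after melatonin (log2 change 0.03). Eef1d, a subunit of the exchange factor for the elongation factor that carries charged transfer RNA to the ribosome, was listed at 30.79, 27.05 and 30.13 after vehicle and 31.41, 37.18 and 40.61 after melatonin. Its groups did not overlap (log2 change 0.30 ± 0.13, SE; limma adjusted p = 0.972).

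Genes that work beside the mitochondrial enzymes had a median log2 change of -0.09 over 11 tested genes, of which 3 were positive and 8 negative, and 3 had all melatonin animals below all vehicle animals (Mtif2, Tsfm and Qrsl1). Over all features tested 54% were negative, 4.33% had all melatonin animals below and the median was -0.02. Mtif2, a mitochondrial initiation factor, was listed at 10.31, 11.24 and 10.67 FPKM after vehicle and 8.76, 7.01 and 8.16 after melatonin. Mtif3 of the same list had a log2 change of 0.05, with groups that overlapped. Tsfm, an elongation factor, was listed at 15.06, 12.12 and 13.48 and at 11.13, 12.05 and 9.12. Qrsl1, a subunit of the enzyme that converts the glutamate charged by Ears2 into glutamine, was listed at 8.26, 8.06 and 8.49 and at 5.35, 7.50 and 7.81, while Ears2 had the opposite order of groups. Mtfmt, which formylates the initiator methionyl-tRNA, was listed at 8.31, 13.70 and 10.65 and at 8.72, 8.88 and 5.66. The log2 changes of Mtif2 and Tsfm were -0.39 and -0.31 (limma adjusted p = 0.972 for each).

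Some other gene lists also had higher medians in melatonin animals 5 and 6 than in animal 4, and others had lower ones. Interferon-induced genes had median differences from the vehicle mean of -0.12, 0.99 and 1.21 in animals 4, 5 and 6 over 23 genes, with Ifit2, Gbp5 and Irf9 at the smallest p and none past the adjusted threshold of limma. Chaperones of the endoplasmic reticulum had -0.11, 0.50 and 0.40 over 13 genes. T and NK cell markers had -0.03, 0.72 and 1.37 over the 7 of 10 that were tested. The summed level of all 10 was 10.2 to 28.4 FPKM after vehicle and 21.2, 30.9 and 48.3 in animals 4, 5 and 6. Cd3e, Gzmb and Cd7 had the smallest p of that list. Cd3e was listed at 1.97, 1.23 and 0.86 FPKM after vehicle and 2.60, 2.81 and 5.07 after melatonin, so its groups did not overlap (limma adjusted p = 0.972). Cd3d was at 0 in 3 of the 6 animals. Of the 7 tested, 6 had a positive log2 change and 1 a negative. The negative one was Cd3g (-0.36), at 0.96, 3.67 and 0.97 after vehicle and 0.49, 0.48 and 2.88 after melatonin. Much of the summed level was Cd7, at 16.38, 6.50 and 5.12 after vehicle and 9.77, 14.54 and 23.50 after melatonin. Colonocyte and brush border markers had -0.07, 0.04 and 0.11 over 10 genes. Smooth muscle and fibroblast markers went the other way, at 0.27, -0.33 and -0.22 over 4 tested genes. Red blood cell genes had -0.18, -0.90 and -0.32 over 4, and goblet cell markers had 0.0032, -0.16 and -0.03 over 6. Macrophage and dendritic cell markers had 0.27, 0.34 and 0.05 over 6. Whether any of these had a part in the synthetase values was not tested, and in bulk RNA fewer cells of a type and less RNA per cell cannot be told apart.

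**Figure D4:**
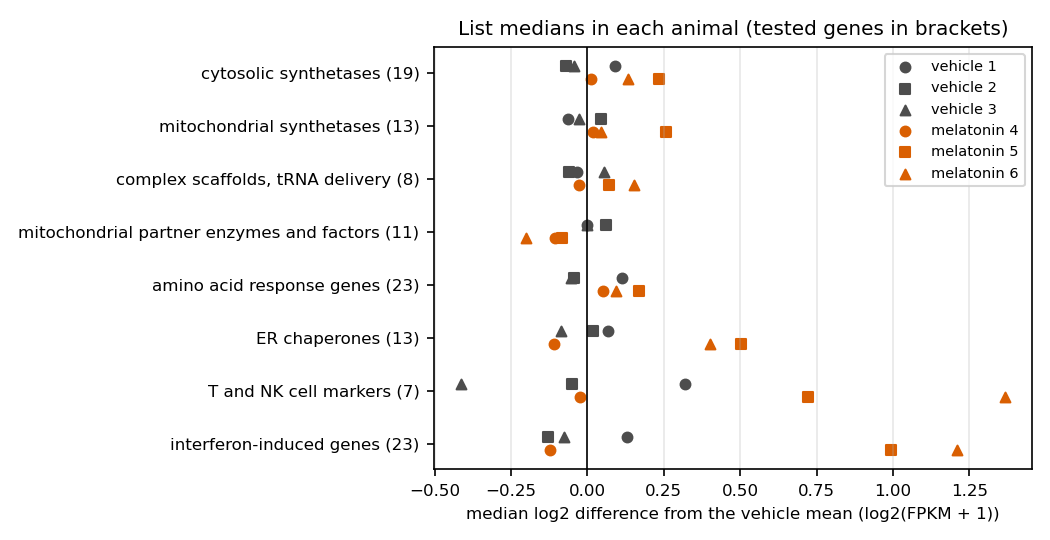
Median log2 difference from the vehicle mean of 8 gene lists in each animal, with the number of tested genes in brackets, grey for vehicle and orange for melatonin. The cytosolic synthetases reach 0.23 in melatonin animal 5, far less than the 0.99 of the interferon-induced genes in that animal, and melatonin animal 4 lies near the vehicle animals in most lists.

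The median member varied less between animals of a group than the median gene. The median coefficient of variation after vehicle was 6.68% for the cytosolic and 10.4% for the mitochondrial genes, against 12.6% for all features tested. After melatonin it was 12.7%, 13.8% and 15.8%. These figures were not matched for level. Pars2 varied least after vehicle (1.20%), and Rars2, the mitochondrial arginine enzyme, varied most (29.0%), at 12.84, 8.24 and 7.79 FPKM. After melatonin their order was reversed, with Pars2 at 21.8% and Rars2 at 10.2%. Pars2 rests on 32 to 34 estimated reads in a vehicle library, too few for so small a spread to be read as steady expression.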

How the data were processed

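Polyadenylated RNA of 6 animals was sequenced, each as its own library (RNA integrity numbers 9.0 to 9.7, per the labels' protocols). The authors deposited FPKM per RefSeq transcript and animal, per the file headers. BWA 0.7.10-r789, Bowtie2, RSEM and the build rn6 are named, without roles, in the submitters' processing notes. The deposited log2 ratios and the authors' score per transcript were not used. The RefSeq table (GRCr8, names only) matched 12883 of 13647 transcripts, and transcripts of 1 gene were summed, giving 12340 genes and 764 unmatched transcripts. Features with a mean of at least 1 FPKM (10137) entered limma (version 3.58.1, R 4.3.3; mean trend, two-sided, log2(FPKM + 1), Benjamini-Hochberg over all, threshold 0.05). With the added 1, changes of low genes come out too small. No count table was at hand, so the test for normalized values was used. It was tried on simulated data drawn independently for each gene, with planted changes larger than that of any member. Smaller changes and shifts shared by many genes were not covered. Depth was estimated from transcripts under 1500 bases, less 37 bases each, which put 90.0% to 91.9% of low values no more than 0.1 from a whole read. The members and lists were chosen with earlier results of these data known. Values are printed in full for the 8 members with the smallest p, the 4 highest and 4 lowest levels, and the widest and narrowest pairings. The 3 genes with the smallest p are named from the partner, amino acid response, interferon-induced and T and NK cell lists. From the chaperone list and the other cell type lists they are not all named. Other genes printed were chosen after their values were seen. p-values measure the spread between these animals. Some promoter stretches are not reported here.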

Additional observations from a re-analysis of the deposited data

How the results depend on the processing

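Across 13 alternatives (2 scalings, 2 filters, a pseudocount of 0.1, the highest transcript in place of the sum, voom on estimated reads, and each of the 6 animals left out) no member passed the adjusted threshold, and the smallest adjusted p of a member by limma was 0.353. A threshold of 0.1 called 0 features as well. The count of features called higher was 1 with the highest transcript and 0 to 4 with an animal left out, and the count called lower was 1 without a filter. Members at an unadjusted p under 0.05, 2 in the main fit, numbered 3 with median-of-ratios and 3 with upper-quartile scaling. All features by that rule went from 380 to 421 and 424. Members by that rule numbered 1 without a filter and 1 to 5 with an animal left out. The 5 were without melatonin animal 4, where all features went from 380 to 1156. The mitochondrial median log2 change ran from -0.02 to 0.20 with an animal left out, the cytosolic one from 0.04 to 0.19, and the median log2 ratio of cytosolic to mitochondrial levels from 1.46 to 1.54. Of 416 member values 396 kept their sign, and 21 of 32 members kept it throughout. With median-of-ratios scaling Hars1 stood at 0.010 and Lars1 at 0.013, and with upper-quartile scaling Lars1 stood at 0.0023. With an animal left out, the sign turned in some fits for Cars1 (-0.18 to 0.026), Eprs1 (-0.037 to 0.27), Farsa (-0.067 to 0.10), Hars1 (-0.17 to 0.10), Lars1 (-0.045 to 0.038), Vars1 (-0.0092 to 0.22), Wars1 (-0.063 to 0.19), Cars2 (-0.051 to 0.20), Fars2 (-0.016 to 0.083), Nars2 (-0.29 to 0.10) and Wars2 (-0.27 to 0.013). The cause was not tested. No paired analysis was possible because the 2 groups share no animal numbers.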
